A study of Mus musculus with 12 samples.

Results

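The Dlk1 to Dio3 domain is an imprinted gene cluster on the distal part of mouse chromosome 12. Its members here were the rows of the deposited expression table whose gene symbol was Meg3, Rian, Mirg, Dlk1, Rtl1, Dio3 or Begain, and all 7 were found among 32494 genes. Meg3, Rian and Mirg are noncoding (3 genes) and Dlk1, Rtl1, Dio3 and Begain are protein-coding (4 genes). RNA sequencing was done on the hypothalamus of 12 male mice, all of them with floxed Smc3 and all treated with tamoxifen, 5 weeks before tissue was taken. An age of 8 weeks is stated for the mice, at a step that is not named. By their genotype labels, mice labelled WT lacked the Camk2a-cre/ERT2 transgene (Cre-, n = 7) and mice labelled cKO carried it (Cre+, n = 5). The transgene itself and recombination of Smc3 therefore cannot be told apart. The transgene uses the Camk2a promoter, which is active in forebrain excitatory neurons, to make a recombinase that tamoxifen switches on, while the libraries came from whole tissue. The labels do not say how many floxed alleles each mouse had, and the word control stands in the titles of both groups.

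In an imprinted domain, genes are read from the copy inherited from only 1 parent. In this domain the long noncoding RNAs Meg3, Rian and Mirg come from the maternal chromosome, in the same direction and one after another, and carry many of the domain's microRNAs and small nucleolar RNAs (snoRNAs) in or between them. Dlk1, Rtl1 and, in part, Dio3 come from the paternal chromosome. Methylation of a control region between Dlk1 and Meg3, kept with the help of the zinc finger protein Zfp57, sets which copy makes which RNAs. Meg3 RNA is abundant in neurons and stays largely in the nucleus. The deposited values do not separate the parental copies, so they give the total from both chromosomes.

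Smc3, the floxed gene and a core subunit of the cohesin ring, went against the labels. It was at 76.8 to 85.7 CPM (reads scaled to a common library total) in the libraries labelled WT and at 116 to 144 CPM in those labelled cKO, and limma gave a log2 fold change of 0.67 with an SE of 0.05 (adjusted p 3.06e-05). All directions below are therefore those of the libraries labelled cKO relative to the libraries labelled WT. An exchange of the labels between the groups would turn every direction, and whether one took place was not tested. WT 1 was sequenced to 68.7 M reads and the other 11 libraries to between 17.1 and 24.0 M. A limma test on log2(CPM + 1), with Benjamini-Hochberg adjusted p-values and a threshold of 0.05, called 2172 of the 15359 genes whose mean reached 1 CPM, or 14.1%. Of these 1004 were higher (6.54% of tested genes) and 1168 lower (7.6%). Median centring turned that balance to 1377 higher and 1054 lower, and a correction for GC content and length to 1296 higher and 827 lower. In 4 libraries (WT 4, WT 5, cKO 12 and cKO 13) the summed hypothalamus markers were lowest, at 96.0 to 263 CPM against 390 to 749 CPM in the other 8, and the summed oligodendrocyte markers were highest, at 8897 to 10129 CPM. Results for the domain genes are given with and without these libraries where the call changed.

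The annotated start regions of 2 of the maternal RNAs are shown because Meg3 passed the test between the groups and Rian, next in line but for Rtl1, did not (below). Sequences are from RefSeq on GRCm38.p6, 250 bases before to 50 bases after the start, and 6 of the 7 genes matched that table. The build of the expression table is not given in the sources used here. For Meg3 (chr12:109540746-109541045, plus strand), the first of its annotated starts, capitals mark the cAMP response element TGACGTCA and the overlapping TATAAA matches. For Rian (chr12:109603695-109603994, plus strand), capitals mark GGNGGCAG, the core letters of the CTCF motif.
Meg3: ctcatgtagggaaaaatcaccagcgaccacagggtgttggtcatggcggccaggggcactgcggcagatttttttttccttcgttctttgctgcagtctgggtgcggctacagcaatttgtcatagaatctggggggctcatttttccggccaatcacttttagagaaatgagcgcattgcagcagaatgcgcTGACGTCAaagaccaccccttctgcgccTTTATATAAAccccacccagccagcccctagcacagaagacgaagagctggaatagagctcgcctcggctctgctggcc
Rian: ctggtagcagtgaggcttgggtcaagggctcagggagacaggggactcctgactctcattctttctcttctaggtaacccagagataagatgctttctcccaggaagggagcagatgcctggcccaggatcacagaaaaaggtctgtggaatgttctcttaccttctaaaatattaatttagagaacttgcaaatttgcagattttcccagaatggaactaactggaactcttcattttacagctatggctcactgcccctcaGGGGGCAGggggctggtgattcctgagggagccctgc
The letters TGACGTCA, a palindrome, lay 57 bases before the Meg3 start, and 1.79% of 32851 RefSeq promoters of this length hold them. TATAAA matched on both strands at 29 and 25 bases before that start, and 13.6% of promoters hold it on either strand. GGNGGCAG lay 13 bases after the Rian start and occurs in 12.6% of promoters on either strand. The Meg3 window held 13 CG dinucleotides and the Rian window 0, with a median of 7 over all promoters. The window of the second annotated Meg3 start held 1. That of Mirg, which did not pass the test either, held 10. Neither of these windows is printed. These are matches of letters in a fixed window and nothing in the data measured binding there.

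MicroRNAs from the 2 downstream host RNAs are also shown, 5 of them, because the rows named for their genes are described below. Mature sequences from RefSeq on GRCm38.p6 are written 5′ to 3′ with the seed, bases 2 to 8, in capitals. The first pair lies in Rian introns (miR-341-5p at chr12:109611521-109611541 and miR-1188-5p at chr12:109611841-109611861). The next pair lies in Mirg introns (miR-453 at chr12:109735669-109735692 and miR-496a-5p at chr12:109739132-109739152) and shares the seed GGUUGCC. The last lies in a Mirg exon (miR-3072-5p at chr12:109747893-109747914). All are on the plus strand.
miR-341-5p: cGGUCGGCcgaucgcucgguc
miR-1188-5p: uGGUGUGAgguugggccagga
miR-453: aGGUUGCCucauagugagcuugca
miR-496a-5p: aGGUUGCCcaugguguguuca
miR-3072-5p: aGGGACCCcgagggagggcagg
Of the table's rows between Begain and Dio3, 38 were named for microRNA genes, and all 38 matched RefSeq, with 71 mature sequences and 65 different seeds.

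Meg3, the first of the maternal noncoding RNAs, was lower in the libraries labelled cKO, while its downstream neighbours Rian and Mirg did not pass the test. In the libraries labelled WT, Meg3 ranged from 3212 to 4556 CPM with a median of 3737. In those labelled cKO it was at 3058 CPM in mouse 8, 2818 in mouse 9, 2907 in mouse 12, 2248 in mouse 13 and 2418 in mouse 14. Every library labelled cKO was therefore below every library labelled WT, and the nearest were cKO 8 and WT 5. The means were 3925 ± 550.5 CPM (SD, n = 7) and 2690 ± 342 CPM (SD, n = 5), whose ratio was 0.685. By limma the log2 fold change was -0.54 (SE 0.11, 95% interval -0.77 to -0.31, adjusted p 0.00815), and the exact permutation p was 0.00253. With a neuron marker score as a covariate the difference was -0.32 and not past the threshold (limma adjusted p 0.108). Summed neuron markers were 6897 to 7793 CPM in the libraries labelled WT and 7801 to 8364 CPM in those labelled cKO, without overlap. Neuron markers and labels thus ran together, so that fit cannot fully tell them apart. Ranges that did not overlap, with the lower values in the libraries labelled cKO, occurred in 3.2% of tested genes. In the authors' deposited table Meg3 had a log2 fold change of -0.55 and a false discovery rate (FDR) of 4.94e-05, where 4.94% of all listed genes had an FDR under the same threshold. Meg3 had the second highest mean CPM of the 32494 genes, with 40854 to 300022 reads a library, and its share of reads was 0.394 ± 0.0579% (SD, n = 7) where the label was WT and 0.268 ± 0.0358% (SD, n = 5) where it was cKO. In whole tissue, fewer cells that express a gene and less RNA per cell cannot be told apart.

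Rian, also called Meg8, hosts the C/D snoRNAs of the domain. Its libraries labelled WT ranged from 492 to 635 CPM with a median of 529. Those labelled cKO were at 623 CPM in mouse 8, 535 in mouse 9, 591 in mouse 12, 640 in mouse 13 and 570.5 in mouse 14. The groups overlapped, with WT 6 lying between the highest pair of libraries labelled cKO. The means were 542 ± 47.2 CPM (SD, n = 7) and 592 ± 42.0 CPM (SD, n = 5). The limma log2 fold change was 0.13 (SE 0.06, 95% interval -0.01 to 0.26, adjusted p 0.184), with an exact permutation p of 0.0821. The interval of Rian lay wholly above that of Meg3, and the difference between the 2 genes was not tested.

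Mirg, or Meg9, carries many microRNA genes at the far end of the maternal RNAs and was the lowest of the 3. It ranged from 19.6 to 27.4 CPM with a median of 25.2 in the libraries labelled WT. The libraries labelled cKO were at 23.1 CPM in mouse 8, 21.5 in mouse 9, 21.7 in mouse 12, 23.9 in mouse 13 and 17.9 in mouse 14, within the WT range except for mouse 14. The limma log2 fold change was -0.13 (SE 0.09, 95% interval -0.33 to 0.06, adjusted p 0.337) and the exact permutation p was 0.205. In the authors' deposited table the FDR was 0.378 for Rian and 0.579 for Mirg.

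**Figure D1:**
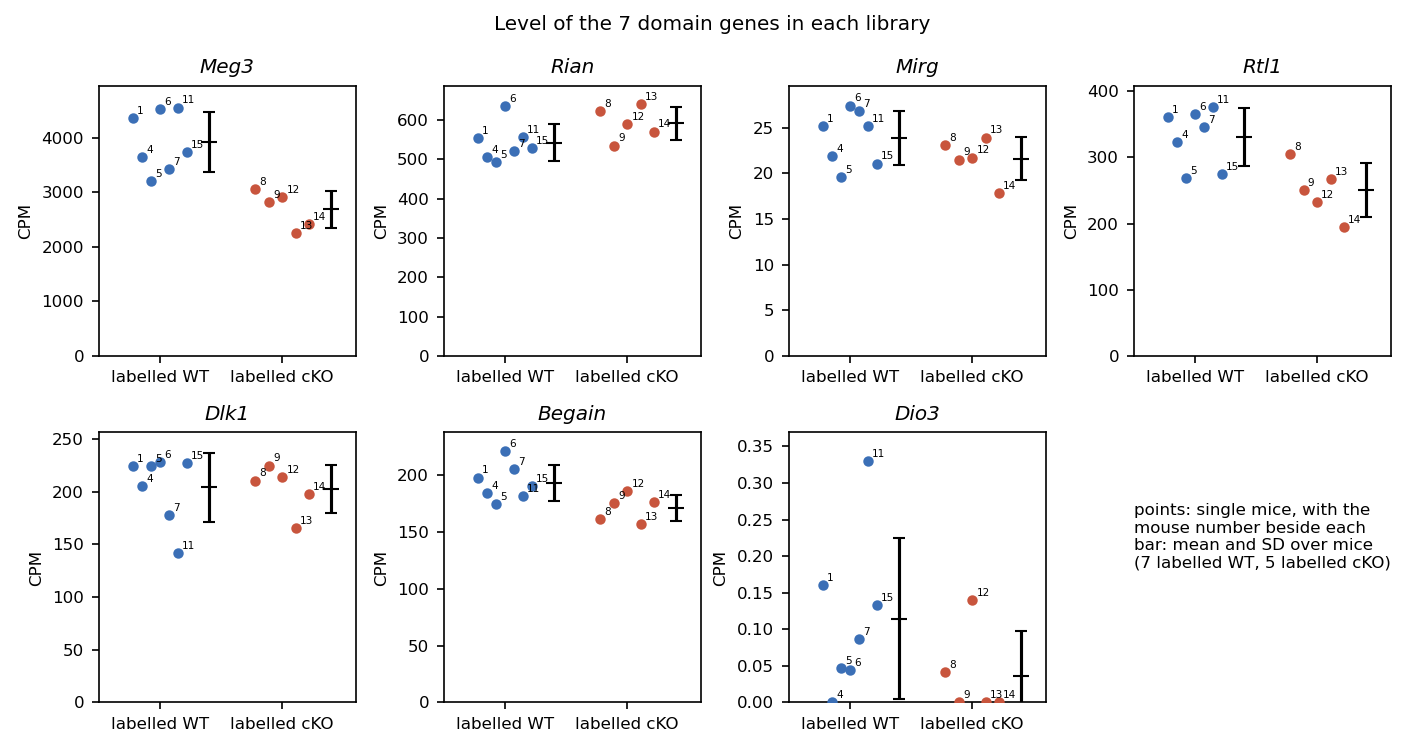
Level of each of the 7 domain genes in CPM (vertical axes, from 0), with 1 point per mouse, the mouse number beside it, and a bar for the mean and SD of each group (7 labelled WT, 5 labelled cKO). For Meg3 the 5 libraries labelled cKO sit between 2248 and 3058 CPM, below all 7 labelled WT, whereas the groups overlap for the other 6 genes.

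Rtl1 was the second domain gene to pass the test. It encodes a protein derived from a retrotransposon that is needed in placental vessels and is also made in the brain. It ranged from 269 to 376 CPM with a median of 346 in the libraries labelled WT. The libraries labelled cKO were at 305 CPM in mouse 8, 250 in mouse 9, 232 in mouse 12, 268 in mouse 13 and 195 in mouse 14. Only cKO 8 lay above the lowest libraries labelled WT, which were WT 5 and WT 15. The means were 331 ± 43.7 CPM (SD, n = 7) and 250 ± 40.9 CPM (SD, n = 5), whose ratio was 0.756. By limma the log2 fold change was -0.41 (SE 0.11, 95% interval -0.64 to -0.17, adjusted p 0.0282), with an exact permutation p of 0.0101 and, in the authors' deposited table, -0.40 and an FDR of 0.0124. This call was lost without WT 1, WT 6, WT 11, cKO 9, cKO 12 or cKO 14, with limma log2 fold changes of -0.48 to -0.32 over all 12 libraries left out in turn (adjusted p 0.0159 to 0.0674). Without the 4 libraries lowest in hypothalamus markers it was -0.48 (limma adjusted p 0.0552). The Rtl1 gene lies on the minus strand, opposite a maternally made antisense transcript, and its RefSeq span overlaps the end of Meg3 and the beginning of Rian. The strand setting of the authors' counting is not given in the sources used here, so reads of Rtl1 and of the RNAs on the other strand cannot be told apart.

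Dlk1, the transmembrane protein at the paternal side of the control region and a relative of Notch ligands, had nearly equal means. In the libraries labelled WT it ranged from 142 CPM (WT 11) to 228 CPM with a median of 224. The libraries labelled cKO were at 210 CPM in mouse 8, 225 in mouse 9, 213 in mouse 12, 165 in mouse 13 and 198 in mouse 14, all inside the WT range. The means were 204 ± 32.9 CPM (SD, n = 7) and 202 ± 22.8 CPM (SD, n = 5). Their limma log2 fold change of -0.00 had a 95% interval of -0.25 to 0.25 (SE 0.12, adjusted p 0.998), and the exact permutation p was 1.

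Begain, which marks the upstream edge of the domain and encodes a protein of the postsynaptic side of synapses, was at 193 ± 15.8 CPM (SD, n = 7) and 171 ± 11.8 CPM (SD, n = 5). It ranged from 174 to 221 CPM (median 190) in the libraries labelled WT. The libraries labelled cKO were at 161 CPM in mouse 8, 175 in mouse 9, 186 in mouse 12, 157 in mouse 13 and 176 in mouse 14, and those of mice 9, 12 and 14 lay inside the WT range. The limma log2 fold change of -0.17 (SE 0.06, 95% interval -0.30 to -0.05) missed the threshold at an adjusted p of 0.0666, with an exact permutation p of 0.0240. In the authors' deposited table the FDR of Begain was 0.132, and that of Dlk1 was 1.

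Dio3, the deiodinase that inactivates thyroid hormone, was at the limit of detection. Its reads numbered 11 in WT 1, 8 in WT 11, 3 in WT 15 and cKO 12, and at most 2 in the other 8 libraries, of which 4 had none. The 11 reads of WT 1, the deepest library, came to 0.160 CPM, and the highest level was 0.33 CPM in WT 11. Dio3 was under the minimum for the limma test, and the exact permutation test gave a p of 0.184. No fold is given, since most libraries were at or under the floor of 3 reads. The authors' deposited table gave an FDR of 0.376.

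Over the 6 tested genes, 2 passed the test, both lower, where 14.1% of all tested genes passed in either direction. This was 1 of 3 noncoding genes, with a median log2 fold change of -0.13, and 1 of 3 tested coding genes, with a median of -0.17. The median over all tested genes was 0.01.

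**Figure D2:**
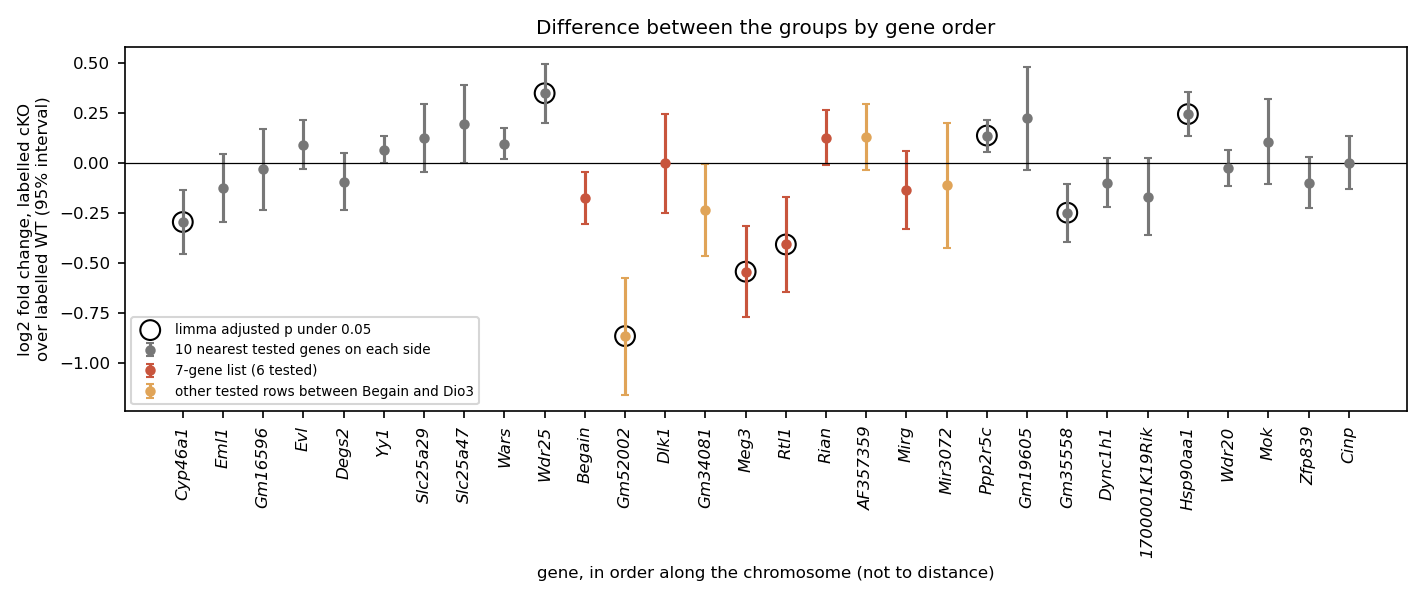
limma log2 fold change (labelled cKO over labelled WT, vertical axis) with its 95% interval for each tested gene of the domain and the 10 nearest tested genes on each side, in their order along the chromosome but not to distance. Circles mark genes with an adjusted p under 0.05: within the domain these are Gm52002 (-0.86), Meg3 (-0.54) and Rtl1 (-0.41), and Dlk1 and Rian stand between and beside them near 0.

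Levels of different genes were set side by side per length of their exons, pooled over all transcripts of a gene in GENCODE M21. That length can exceed the length of the main transcript. The annotation used for the authors' counting is not given, so these lengths need not match the counted ones. The order below depends on them. In the libraries labelled WT, Meg3 was far above the rest, at 217 CPM per kb (range 178 to 252). Rtl1 followed at 52.0 (42.2 to 59.1), Begain at 43.9 (39.5 to 50.1), Dlk1 at 36.0 (25.0 to 40.3) and Rian at 29.7 (27.0 to 34.8). Each of these 4 overlapped its neighbour in the order. Mirg, at 3.28 CPM per kb, and Dio3, at 0.0564, were each below all libraries of the gene above. In the libraries labelled cKO the order was the same, with Meg3 at 149 CPM per kb, and Rtl1 (39.3), Begain (38.8), Dlk1 (35.8) and Rian (32.5) each overlapped the next.

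Ratios within a library do not depend on its scaling, and they separated Meg3 and Rtl1 from Rian. Meg3 over Rian was 6.53 to 8.18 in the libraries labelled WT and 3.51 to 5.27 in those labelled cKO, without overlap. Rtl1 over Rian was 0.520 to 0.675 against 0.342 to 0.489, again without overlap. Between Meg3 and Rtl1 themselves the ratio overlapped, at 9.91 to 13.6 against 8.39 to 12.5. Mirg over Rian was 0.0399 to 0.0514 in the libraries labelled WT and 0.0313 to 0.0402 in the others, overlapping only through cKO 9. Meg3 made up 86.2% to 88.7% of the summed CPM of the 3 noncoding genes in the libraries labelled WT and 77.2% to 83.5% in those labelled cKO. Over the other genes the groups overlapped. Meg3 over Mirg was 128 to 181 in the libraries labelled WT and 93.9 to 135 in those labelled cKO. Rtl1 over Mirg was 12.9 to 14.9 against 10.7 to 13.2, and Meg3 over Dlk1 14.3 to 32.2 against 12.2 to 14.5. These ratios are given as values, with no test. How often ratios of other gene pairs do not overlap was not computed.

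Noncoding and coding genes were also compared as sums. The noncoding sum was 3723 to 5190 CPM in the libraries labelled WT and 2912 to 3705 CPM in those labelled cKO, without overlap. The coding sum was 667 to 814 CPM and 569 to 677 CPM, overlapping. Noncoding over coding was 5.46 to 7.35 against 4.94 to 5.57, overlapping through WT 7 alone, which lay below cKO 8 and cKO 12. Without Meg3 and Rtl1, the pair that passed the test, the ratio was 1.28 to 1.80 against 1.39 to 2.06, and the groups overlapped.

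**Figure D3:**
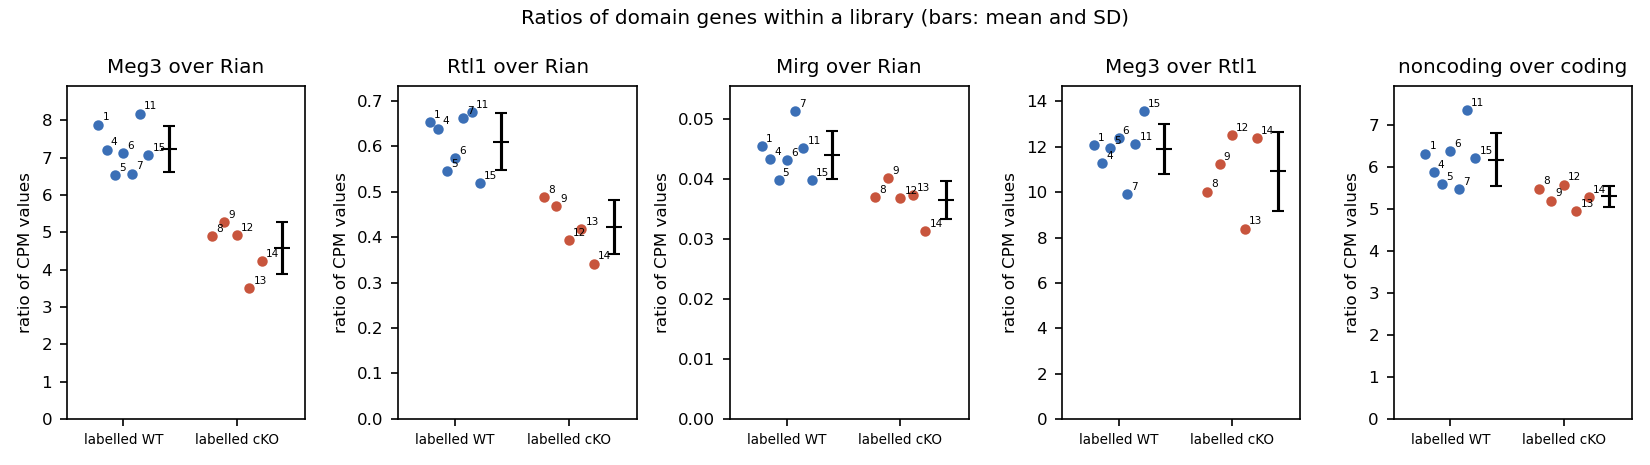
Ratio of CPM values of domain genes within each library (vertical axes, from 0), with 1 point per mouse and bars for the mean and SD of each group. Meg3 over Rian and Rtl1 over Rian do not overlap between the groups (3.51 to 5.27 below 6.53 to 8.18, and 0.342 to 0.489 below 0.520 to 0.675), while the other 3 ratios do.

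How the genes varied among mice of 1 group was examined in the 7 libraries labelled WT, for 15 pairs of the 6 tested genes. Meg3 and Rian had a Pearson's r of 0.836 (exact permutation p 0.0111, Benjamini-Hochberg adjusted 0.0833) and a Spearman's rho of 0.929 (exact permutation p 0.00675, adjusted 0.0893). Without the 2 libraries farthest from the median Meg3 level, r was 0.897 (n = 5). Over all 12 libraries with the group means taken out, it was 0.470. Mirg and Rtl1 had an r of 0.900 (exact permutation p 0.00635, adjusted 0.0833) and a rho of 0.750 (exact permutation p 0.0663, adjusted 0.199), with r at 0.664 without the 2 farthest libraries (n = 5). Both of these r values rest on 5 libraries only. No pair passed 0.05 after adjustment over the 15. No correlation was computed in the 5 libraries labelled cKO, where cKO 13 had the lowest Meg3 beside the highest Rian.

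**Figure D4:**
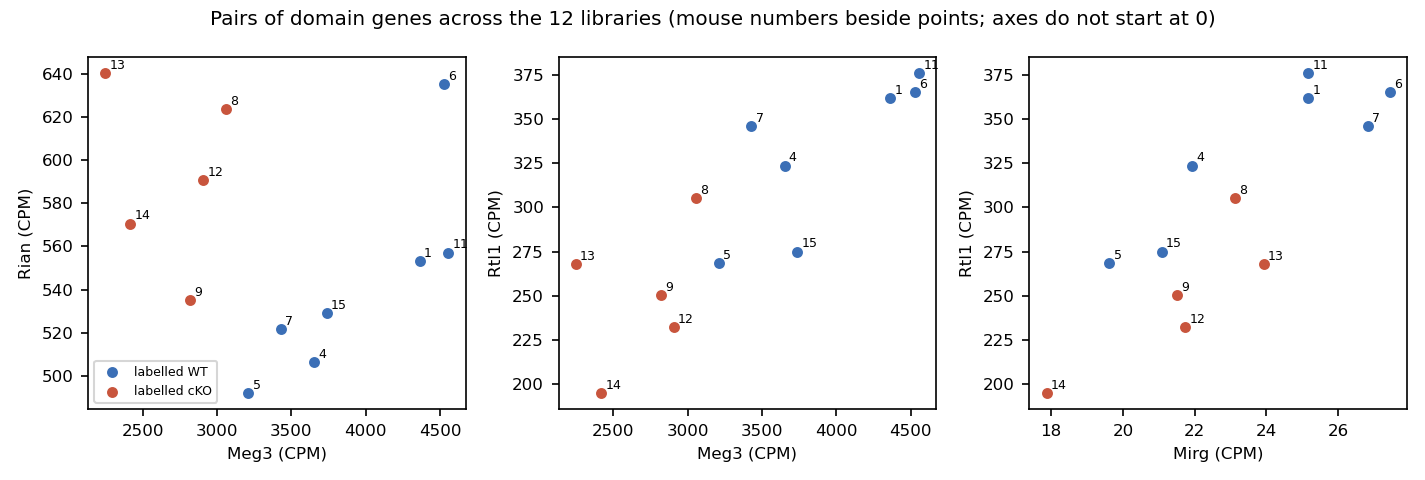
CPM of Meg3 against Rian, Meg3 against Rtl1 and Mirg against Rtl1 in each of the 12 libraries, with mouse numbers beside the points and axes that do not start at 0. In the left panel the libraries labelled WT run upward with an r of 0.836, and the 5 labelled cKO lie apart to the left, at 2248 to 3058 CPM of Meg3.

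The table held 64 further rows that RefSeq places between Begain and Dio3, namely 38 microRNA, 17 snoRNA and 9 long noncoding RNA rows. Libraries of messenger RNA are not made to capture mature microRNAs, and the source of the reads on those rows was not tested. Of the 38 microRNA rows, 22 lie in neither Rian nor Mirg. Only 4 of the 64 rows reached the minimum of 1 CPM, and 1 of them passed the test, where 14.1% of all tested genes did. This was Gm52002, a noncoding RNA on the plus strand within an intron of Begain, whose own strand is minus. It was at 8.20 ± 1.02 CPM (SD, n = 7), with a range of 6.05 to 9.12, and at 4.13 ± 1.10 CPM (SD, n = 5), with a range of 2.37 to 5.41, so the groups did not overlap. limma put its log2 fold change at -0.86 (SE 0.14, adjusted p 0.00351), on 50 to 627 reads a library. Without strand information these reads and those of unspliced Begain cannot be told apart.

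The other 3 rows over the minimum did not pass. AF357359, a snoRNA row in a Rian exon, was at 14.8 CPM and 16.4 CPM (limma log2 fold change 0.13, SE 0.08, adjusted p 0.258), near the value of Rian itself. Mir3072, in a Mirg exon, was at 2.82 and 2.51 CPM (-0.11, SE 0.15, limma adjusted p 0.648). Gm34081, a noncoding RNA between Dlk1 and Meg3, was at 2.61 and 2.10 CPM (-0.23, SE 0.11, limma adjusted p 0.154).

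When every gene with a value above 0 was fitted, which put 4.86% of 31802 genes past the threshold, 2 of the 63 fitted rows passed, Gm52002 and Mir496a. Mir496a rested on 40 reads over the 7 libraries labelled WT and 7 reads over the 5 labelled cKO, with at most 2 in any of the latter, under the floor of 3. Its log2 fold change by limma was -0.15 (SE 0.04, adjusted p 0.0326), and its exact permutation p was 0.00253. Mir453, which shares the seed printed above and also lies in a Mirg intron, had 83 and 28 reads and -0.15 (SE 0.06, limma adjusted p 0.196). In Rian introns, Mir1188 was at 1.09 ± 0.278 CPM (SD, n = 7) and 0.616 ± 0.197 CPM (SD, n = 5), with 8 to 74 reads a library (limma adjusted p 0.0695). Mir341, its neighbour, was at 0.470 ± 0.114 and 0.276 ± 0.104 CPM, with 3 to 36 reads (limma adjusted p 0.0854). These rows were named after their values were seen.

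Summed over rows, the short RNAs in Rian introns were at 2.67 to 4.21 CPM in the libraries labelled WT and 1.90 to 2.72 CPM in those labelled cKO, overlapping through cKO 14. Those in Rian exons were at 16.7 to 19.5 and 15.8 to 21.3 CPM. Those in Mirg, introns and exons together, were at 4.19 to 6.49 and 4.18 to 5.92 CPM. These sums are values with no test, and the contrast between intron and exon rows was not tested.

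All 20 of the nearest tested genes beside the domain had smaller estimated differences than Meg3. Of the 10 nearest tested genes upstream, 1 was higher and 1 lower, and of the 10 downstream 2 were higher and 1 lower, against 6.54% and 7.6% of all tested genes. Wdr25, the nearest upstream of Begain, was at 12.8 ± 0.353 CPM (SD, n = 7) and 16.6 ± 2.01 CPM (SD, n = 5), and its log2 fold change by limma was 0.35 (SE 0.07, adjusted p 0.00833). Wars, the next, a tRNA synthetase gene, was at 114 and 122 CPM (0.10, SE 0.04, limma adjusted p 0.0866). On the far side, Ppp2r5c, a phosphatase regulatory subunit, was at 194 and 213 CPM (0.14, SE 0.04, limma adjusted p 0.0272), and Gm19605 at 1.38 and 1.78 CPM did not pass (limma adjusted p 0.217). Farther out, Hsp90aa1, a heat shock chaperone, was higher at 0.25 (SE 0.05, limma adjusted p 0.0107). Cyp46a1, which makes 24-hydroxycholesterol in neurons, was lower at -0.29 (SE 0.07, limma adjusted p 0.0210), and Gm35558 at -0.25 (SE 0.07, limma adjusted p 0.0287). Ppp2r5c lost its call without WT 1, WT 11, cKO 13 or cKO 14 (limma adjusted p up to 0.0613), and Gm35558 without WT 1, WT 11, cKO 9 or cKO 14 (up to 0.0686). With the neuron score as a covariate, Hsp90aa1 was at 0.13 (limma adjusted p 0.156), Ppp2r5c at 0.07 (0.323) and Gm35558 at -0.18 (0.233). Wdr25 was at 0.32 (limma adjusted p 0.0597) and Cyp46a1 at -0.33 (0.0682) in that fit, and none of these genes passed. On the other hand, Gm19605 passed with the neuron score (0.47, limma adjusted p 0.04998) and Wars without WT 5 (0.0413). Without the 4 libraries lowest in hypothalamus markers, Wdr25 was at 0.29 (limma adjusted p 0.0647), Ppp2r5c at 0.12 (0.0732) and Cyp46a1 at -0.25 (0.0939), none past the threshold. With a thalamus and habenula marker score as a covariate, Cyp46a1 was at -0.15 (limma adjusted p 0.278) and Wdr25 at 0.28 (0.0891). Ppp2r5c was at 0.17 (0.0714) and Gm35558 at -0.30 (0.0746) in that fit, and none of these genes passed. Cyp46a1 was also not past the threshold after the correction for GC content and length (-0.24, limma adjusted p 0.0528).

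Among 20 tested genes that keep or set imprints, 4 were lower and none higher in the limma test, where 7.6% and 6.54% of all tested genes were. Zfp57, the factor that protects the methylated copy of imprinted control regions, was at 38.5 ± 3.99 CPM (SD, n = 7) and 29.2 ± 1.22 CPM (SD, n = 5), without overlap (log2 fold change -0.38, SE 0.07, limma adjusted p 0.00586). Zfp445, which shares that task, was at -0.24 (SE 0.05, limma adjusted p 0.0139). Tet2, which oxidizes methylated cytosine, was at -0.31 (SE 0.06, limma adjusted p 0.00601), and the methyltransferase Dnmt3a at -0.22 (SE 0.06, limma adjusted p 0.0245). Dnmt3a was no longer past the threshold without WT 1, cKO 13 or cKO 14 (limma adjusted p up to 0.0547). With the neuron score as a covariate none of the 4 passed, with Tet2 at -0.26 (limma adjusted p 0.0514), Zfp57 at -0.23 (0.0781), Zfp445 at -0.17 (0.139) and Dnmt3a at -0.13 (0.275). With the thalamus and habenula score, Zfp445 (-0.23, limma adjusted p 0.0792) and Dnmt3a (-0.24, 0.0915) lost their calls. Dnmt3a also lost its call after the correction for GC content and length (-0.10, limma adjusted p 0.104). The median of the list was -0.05, with Trim28 at -0.04, Dnmt1 at -0.04 and Ctcf at -0.06, none past the threshold.

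The pathways that Dlk1 and Dio3 belong to were described next. Of 23 Notch pathway genes, 1 was higher and 2 lower, beside 6.54% and 7.6% of all tested genes, with a median of -0.06. Hes5, a Notch target, was at 0.30 (SE 0.08, limma adjusted p 0.0244), the ligand Jag1 at -0.34 (SE 0.11, limma adjusted p 0.0467) and Ncstn, a gamma-secretase subunit, at -0.14 (SE 0.04, limma adjusted p 0.0364). Of 11 tested genes of thyroid hormone handling and response, 1 was higher and 2 lower, beside the same 6.54% and 7.6%, with a median of 0.07. Hr, a corepressor that thyroid hormone induces in brain, was at -0.50 (SE 0.13, limma adjusted p 0.0240), and the receptor gene Trhr at 0.44 (SE 0.13, limma adjusted p 0.0356). Dio2, the activating deiodinase, was at 10.4 ± 2.65 and 13.8 ± 7.68 CPM (limma adjusted p 0.609). The calls of Hes5, Jag1, Ncstn, Hr and Trhr did not hold in every fit that left out a library. Jag1 lost its call without any of 9 libraries (limma adjusted p up to 0.0991, without cKO 9) and Ncstn likewise (up to 0.0768, without WT 1). Hes5 lost it without WT 1 or cKO 9 (up to 0.0611), Hr without cKO 9 or cKO 14 (up to 0.0551), and Trhr without WT 4, 6 or 7 or cKO 8, 9 or 14 (up to 0.0713). With the thalamus and habenula score as a covariate Hes5 was at 0.18 (limma adjusted p 0.274). Jag1 (limma adjusted p 0.161), Ncstn (0.206), Hr (0.153) and Trhr (0.184) also lost their calls in that fit. Hes5 lost its call with the neuron score (0.35, limma adjusted p 0.0650) and without the 4 libraries lowest in hypothalamus markers (0.31, 0.0901). Jag1 (-0.47, limma adjusted p 0.0537) and Ncstn (-0.09, 0.288) also lost theirs with the neuron score, and Trhr without the 4 libraries (0.54, 0.0536). After the correction for GC content and length Jag1, Ncstn, Hr and Trhr were not past the threshold (limma adjusted p up to 0.0869, for Hr).

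Other imprinted genes went both ways. Of 38 tested, 4 were higher and 5 lower, beside 6.54% and 7.6% of all tested genes, with a median of 0.04. Zim1, an imprinted zinc finger gene beside Peg3, changed most. It was at 41.0 ± 5.84 CPM (SD, n = 7) and 16.7 ± 3.39 CPM (SD, n = 5), which limma put at -1.26 on the log2 scale (SE 0.12, adjusted p 0.000488). Kcnk9, a potassium channel gene, was at -0.61 (SE 0.10, limma adjusted p 0.00383), Cdkn1c, a cell cycle inhibitor, at -0.54 (SE 0.15, limma adjusted p 0.0279), and the noncoding Snhg14 at -0.39 (SE 0.09, limma adjusted p 0.0140). Cdkn1c lost its call without WT 1, cKO 8, cKO 9 or cKO 14 (limma adjusted p up to 0.0655).

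Other long noncoding RNAs were described beside Meg3. Of 22 tested, 7 were lower and 2 higher, against 7.6% and 6.54% of all tested genes, and their median log2 fold change was -0.14. Mir124a-1hg, host of the neuronal miR-124, was at 121 ± 17.8 CPM (SD, n = 7) and 68.5 ± 2.27 CPM (SD, n = 5), without overlap (-0.80, SE 0.09, limma adjusted p 0.000656). Miat, a neuronal nuclear RNA, was at -0.73 (SE 0.12, limma adjusted p 0.00403), Snhg11 at -0.64 (SE 0.12, limma adjusted p 0.00570) and Firre, a nuclear RNA made from the X chromosome, at -0.60 (SE 0.11, limma adjusted p 0.00771). With the neuron score as a covariate, Firre was at -0.28 (limma adjusted p 0.0989), and Snhg11 (limma adjusted p 0.0702) and Snhg14 (0.153) also lost their calls. The list's summed level was 4270 to 5790 CPM in the libraries labelled WT and 3098 to 3679 CPM in those labelled cKO, without overlap.

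Markers of cell types moved with the groups too, and their part in the Meg3 and Rtl1 results was not tested beyond the covariate fits given here. Of the 12 neuron markers whose sums are given with Meg3 above, 3 passed the limma test, all higher, beside 6.54% of all tested genes. They were Map2, Stmn2 and Elavl4, of which Stmn2 lost its call without WT 1 and Elavl4 without cKO 9 or cKO 14 (limma adjusted p up to 0.0516 and 0.0534). With the neuron score as a covariate Rtl1 was at -0.38 (limma adjusted p 0.145). Of 13 thalamus and habenula markers 4 were lower and none higher, beside 7.6% and 6.54% of all tested genes, with sums of 1501 to 2296 and 1309 to 1601 CPM. They were Prkcd (-1.44, SE 0.35, limma adjusted p 0.0177), Rora (-0.75, SE 0.15, limma adjusted p 0.00970), Plekhg1 (-0.61, limma adjusted p 0.0489) and Ntng1 (-0.53, limma adjusted p 0.0287). Plekhg1 and Ntng1 did not keep their calls in every fit that left out a library (limma adjusted p up to 0.103 and 0.0620). Without the 4 libraries lowest in hypothalamus markers, Rora was at -0.67 (limma adjusted p 0.0642), Plekhg1 at -0.43 (0.233) and Ntng1 at -0.43 (0.178). With the thalamus and habenula score as a covariate Meg3 was at -0.63, past the threshold, and Rtl1 at -0.39 (limma adjusted p 0.140).

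Of 14 tested hypothalamus markers 2 were higher, beside 6.54% of all tested genes, namely Sim1 (0.56, SE 0.14, limma adjusted p 0.0206) and Gsx1 (0.50, limma adjusted p 0.0475), with sums of 96.0 to 670 and 206 to 749 CPM. Sim1 lost its call without cKO 9 or cKO 14 (limma adjusted p up to 0.0519) and Gsx1 without any of 9 libraries (up to 0.101). Of 8 genes listed as markers of neurons that may make Dlk1, not all of them peptide genes, 0 passed the limma test. Their sums were 531 to 1069 and 549 to 956 CPM. Whether the neurons with these markers make Dlk1 was not tested. Of 9 oligodendrocyte markers 2 were higher (Olig2 and Pdgfra), beside the same 6.54%, with sums of 4247 to 10061 and 4979 to 10129 CPM, and each lost its call without any of 9 libraries (limma adjusted p up to 0.0851, without cKO 12, and 0.11, without cKO 14). Markers of astrocytes, microglia, endothelium, ependyma, choroid plexus, cortex and striatum, and pituitary had 0 genes past the limma threshold, and their sums overlapped between the groups.

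**Figure D5:**
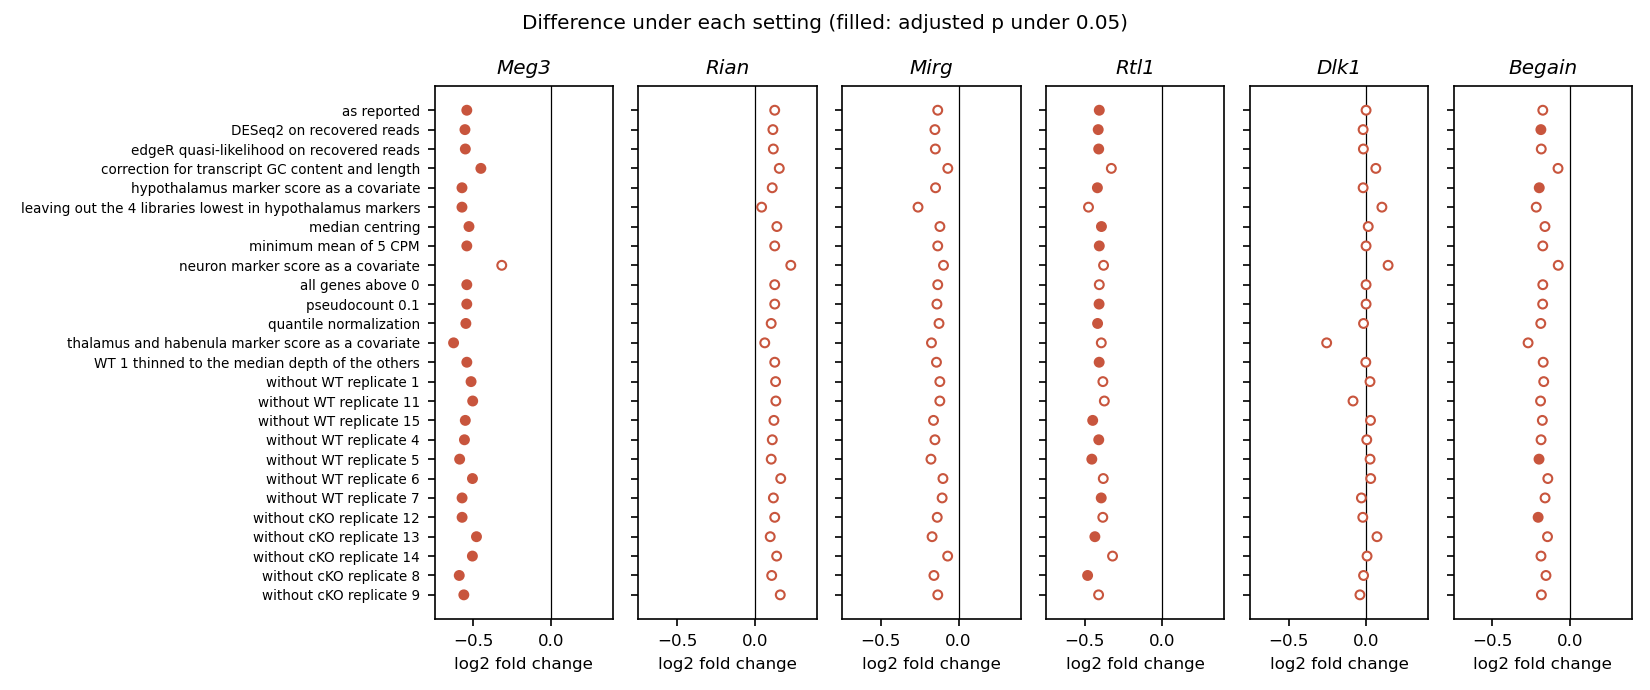
log2 fold change (labelled cKO over labelled WT, horizontal axes) of 6 domain genes as reported and under each alternative setting, 1 per line. Filled points have an adjusted p under 0.05. Meg3 is filled in every line but the one with the neuron score (-0.32), Rtl1 loses its fill in 11 lines, and Rian and Mirg are never filled.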

How the data were processed

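Hypothalamus messenger RNA of 12 male mice was sequenced, and mice were grouped from the titles and genotype labels as labelled WT (n = 7) and labelled cKO (n = 5). The submitters' processing notes name bcl2fastq, FastQC 0.11.9, STAR 2.7.9a, SAMtools, Subread and featureCounts without roles. Genome build, annotation and strand setting are not given in the sources used here. The authors deposited normalized CPM for 32494 genes, beside the output of their own test, which gives log2 fold changes, log2 mean CPM, p-values and FDR. Deposited CPM values were whole multiples of 1 step per library (within 0.01 reads), which gave back whole reads. A level of 3 reads was taken as the floor, which covers counting error only.

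The main test was limma 3.58.1 (R 4.3.3, trended eBayes) on log2(CPM + 1), which understates changes of low genes, over the 15359 genes whose mean reached 1 CPM, with Benjamini-Hochberg adjustment and a threshold of 0.05. Beside it stand two-sided exact permutation p-values over the 792 ways to label 5 of the 12 libraries cKO, unadjusted, with 0.00126 as the smallest possible. Replicates are separately numbered mice per the labels. Alternatives were quantile normalization, median centring, a pseudocount of 0.1, no minimum, a minimum of 5 CPM, edgeR 4.0.16 (quasi-likelihood) and DESeq2 1.42.0 on recovered reads, marker scores as covariates, and leaving out each library. A correction for GC content and length (GENCODE M21, 94.5% of tested genes matched), thinning of WT 1, and leaving out the 4 libraries lowest in hypothalamus markers were chosen after seeing the data. The fit was run on simulated data whose changes were larger than those of Meg3 and Rtl1. The simulation held no differences in tissue make-up, so it does not show how reliable the calls given here are.

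The domain genes, gene lists and tests were chosen with earlier results of these data known. Named genes were the 7 domain genes, genes of the domain and its flanks past the threshold, the nearest 2 flanking genes on each side, up to 4 genes per other list with the largest changes past the threshold, the 3 genes most alike to Meg3, Rian, Mirg and Dlk1, and Smc3. Trim28, Dnmt1, Ctcf, Dio2, the microRNA rows under 1 CPM and the 3 rows over it that did not pass were named outside that rule, after their values were seen. A listed gene that the rule would name is not reported here.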

Additional observations from a re-analysis of the deposited data

Results flagged for a closer look

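In each group, a library standing apart from the others of its group was looked for by Dixon's test in 86 sets of values, of which 8 were picked out where chance gives about 4.3. Meg3 over Mirg was lowest in WT 7 among the libraries labelled WT, at 128, with the next at 164. It was lowest in cKO 13 among those labelled cKO, at 93.9, with the next at 131. WT 11, which had the lowest Dlk1, was highest for Meg3 over Dlk1 (32.2, next 19.9), for Rian over Dlk1 (3.93, next 2.94), and for the noncoding sum without Meg3 over the coding sum without Rtl1 (1.80, next 1.48). The summed CPM of the other long noncoding RNA rows of the domain was lowest in WT 5, at 8.09, with the next at 10.8. The summed CPM of the short RNA rows in Rian exons was lowest in cKO 9, at 15.8, with the next at 19.7. Depth was highest in WT 1, at 68744112 reads, with the next at 24010001.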

How the results depend on the processing

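Meg3 kept its direction in all 25 alternatives and its call in 24. It was not past the threshold with the neuron score (-0.32, limma adjusted p 0.108), and leaving out each library gave -0.59 to -0.48. Rtl1 was not past it in 11 of 25, all with the same direction: after correcting for GC content and length (-0.33, adjusted p 0.0548 by limma), the neuron score (-0.38), the thalamus and habenula score (-0.39), all genes above 0 (-0.41), without the 4 libraries lowest in hypothalamus markers (-0.48), and without each of 6 single libraries (-0.48 to -0.32 over all 12). Begain passed with DESeq2 (-0.19, adjusted p 0.0292) and with the hypothalamus score (-0.20, limma adjusted p 0.0263), and without WT 5 or cKO 12 (-0.20 to -0.14 over all 12). Dlk1, never past the threshold, was above 0 with the GC and length correction (0.062), median centring (0.013), the neuron score (0.14) and without the 4 libraries (0.10), and ranged from -0.084 to 0.070 over libraries left out and to -0.25 with the thalamus and habenula score. Rian and Mirg kept direction and side in all 25, and Dio3 in the 14 that gave it a value. The count of 2172 genes was 1110 with the neuron score, 659 with the thalamus and habenula score, 2905 with the hypothalamus score, 2747 with DESeq2, and 1161 to 2309 over libraries left out, lowest without WT 1. Of 947 further values for 38 other named genes, 778 kept direction and side, 165 lost the call, 4 gained it, and none changed direction. The cause of these changes was not tested. No paired analysis was possible because the groups share no mouse numbers. Depth limits Dio3 and the microRNA rows, most of them at a few reads a library.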

Other observations

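The genes whose levels ran most alike to single domain genes within the groups lay outside the domain. Over the 12 libraries, with each group's mean taken out of log2(CPM + 1), the genes most alike to Meg3 were Dtx3 (Pearson's r 0.959), Csf2ra (0.957) and Gm20605 (0.956). For Rian they were Chfr (0.956), Matk (0.952) and Ccnl2 (0.936), and for Mirg Trmt13 (0.953), Sugp1 (0.944) and Ercc1 (0.932). For Dlk1 they were Smap2 (0.930), Fbxo46 (0.921) and Arnt2 (0.897). By the same measure Meg3 had an r of 0.470 with Rian, 0.472 with Mirg, 0.596 with Rtl1 and 0.0797 with Dlk1. Rtl1 ranked 23 among all tested genes for Mirg, with an r of 0.885. These are descriptions over 12 libraries of unequal depth, picked as the highest of all tested genes.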
